A study of Mus musculus with 3 samples.

Results

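The genes described here are 7 that were grouped as genes of conventional type 2 dendritic cells: Sirpa, Cd209a, Mgl2, Klf4, Zbtb46, Ffar2 and Cd1d1. They were taken by gene symbol from the 19505 named genes of the array, and all 7 were found, each with 1 probe set. The cells measured were not labelled as type 2 cells. Per the labels they were plasmacytoid dendritic cells, known as the main source of type I interferon, from wild-type BALB/c bone marrow. The mice were males of 4 to 5 weeks of age. Their marrow stayed for 6 to 9 days in medium with 100 ng/mL Flt3 ligand, CpG oligodeoxynucleotides were used to mature the cells, and flow cytometry was used to sort them. There were 3 groups with 1 array each. One group received oxymatrine, an alkaloid of Sophora root, and another astragaloside IV, a saponin of Astragalus root, each for 12 h before 1 h with the chemokine CCL21 at 37 °C. The remaining group was the control, and the labels do not say whether it received CCL21 or a vehicle, nor do they give doses, the gates of the sort, or how many mice or cultures stand behind an array. A difference from control therefore cannot be told apart from the CCL21 step. With 1 array per group there is no replicate error, so no test was possible and every difference below is a description of these arrays.

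Conventional dendritic cells fall into type 1, which specialises in cross-presentation of antigen to CD8 T cells, and type 2, which mainly primes CD4 T cells. Flt3 ligand cultures of marrow yield plasmacytoid cells and both conventional types, and the sort is the step that separates them. The 7 genes cover surface receptors (Sirpa, Cd209a, Mgl2, Ffar2), lipid presentation (Cd1d1) and transcription factors (Klf4, Zbtb46). None of them is exclusive to type 2 cells: SIRPα and CD1d, for example, are also carried by macrophages.

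Levels are log2 expression values, and a probe set was called above background when its mean over the 3 arrays reached 5.28. That level lies at the 95th percentile of a set of 1410 receptor genes for odours and pheromones, which are normally silent in blood cells and whose median lay at 3.98. By this measure 4 of the 7 genes were above background, Sirpa, Cd1d1, Zbtb46 and Ffar2, against 54.7% of all named genes. Probe sets differ in how well they bind, so the levels of different genes do not rank their RNA amounts.

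Sirpa encodes SIRPα, the inhibitory receptor that binds CD47 and recruits the phosphatases SHP-1 and SHP-2. Its level was 14.90 with oxymatrine, 14.90 with astragaloside IV and 14.90 in control. The deposited values were identical to the last digit, so no order of the 3 arrays exists for this gene. Such ties come with the summary step of the authors' processing (median polish, which can give equal values over few arrays), and 15.8% of all named genes had equal values in all 3 arrays. Sirpa lay far above all 1410 receptor genes. In a bulk sample this level cannot tell plasmacytoid cells that carry the transcript from other cells in the sorted fraction.

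Cd1d1 encodes CD1d, which presents lipids to natural killer T cells in a complex with β2-microglobulin. It was at 9.55 with oxymatrine, 9.51 with astragaloside IV and 9.63 in control, and thus clear of background in each array. Both treated arrays were below control, by differences of -0.08 with oxymatrine and -0.12 with astragaloside IV. Genes of similar level had differences with an SD of 0.21 with oxymatrine and 0.18 with astragaloside IV, so Cd1d1 lay within the usual scatter of genes of its brightness. That scatter describes how far genes of like level lie apart and is not a replicate error. Fewer cells that carry a transcript and less of it per cell cannot be told apart in any of these values.

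Ffar2 encodes a G protein-coupled receptor for short-chain fatty acids, best known from neutrophils and gut immune cells. It had the largest difference from control among the 7 genes, in both treated arrays. Its level was 5.17 with oxymatrine, 5.17 with astragaloside IV and 5.62 in control, a difference of -0.46 in each comparison and 0 between the treated arrays. Only the control value was above the background level. The gene therefore passed the filter through the group in which it was high, and its treated values are no more than a dim signal. The differences were -1.52 times the SD of genes of similar level with oxymatrine and -1.64 times that SD with astragaloside IV.

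Both lectin genes were at the level of silent genes. Mgl2 encodes CD301b, a galactose-binding C-type lectin of dermal and other type 2 cells, and stood at 3.335 in each array with identical deposited values. Cd209a encodes a mouse relative of human DC-SIGN, a pathogen-binding lectin of type 2 and monocyte-derived dendritic cells. It was at 3.60 with oxymatrine, 3.58 with astragaloside IV and 3.24 in control. Of the 1410 receptor genes, 16.7% had a mean level at or below that of Mgl2 and 21.6% at or below that of Cd209a. The treated arrays were above control for Cd209a, by 0.36 with oxymatrine and 0.34 with astragaloside IV. These are 1.28 times the SD of genes of similar level with oxymatrine and 1.20 times with astragaloside IV. Since no array had a Cd209a value above background, these differences give no measure of its RNA. Among the receptor genes themselves, 25.5% differed by 0.32 or more on the log2 scale between oxymatrine and control, and 25.8% between astragaloside IV and control.

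Zbtb46 and Klf4, the transcription factor genes, lay on either side of the background level and differed from control in opposite directions. Zbtb46 marks conventional dendritic cells and their committed precursors within the immune system and is normally low in plasmacytoid cells. Its level was 5.74 with oxymatrine, 5.61 with astragaloside IV and 5.47 in control, all above the background level, by a small margin. The difference from control was 0.27 with oxymatrine, 0.90 times the SD of genes of similar level, and 0.14 with astragaloside IV, 0.50 times that SD. Klf4 is needed in mice for the type 2 cells that drive T helper 2 responses and is also a factor of monocytes. It stood at 4.92 with oxymatrine, 5.15 with astragaloside IV and 5.28 in control, so that only the control array touched the background level. The difference from control was -0.36 with oxymatrine, -1.20 times the SD, and -0.13 with astragaloside IV, -0.46 times the SD. The oxymatrine array was below the astragaloside IV array by a difference of -0.23.

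**Figure D1:**
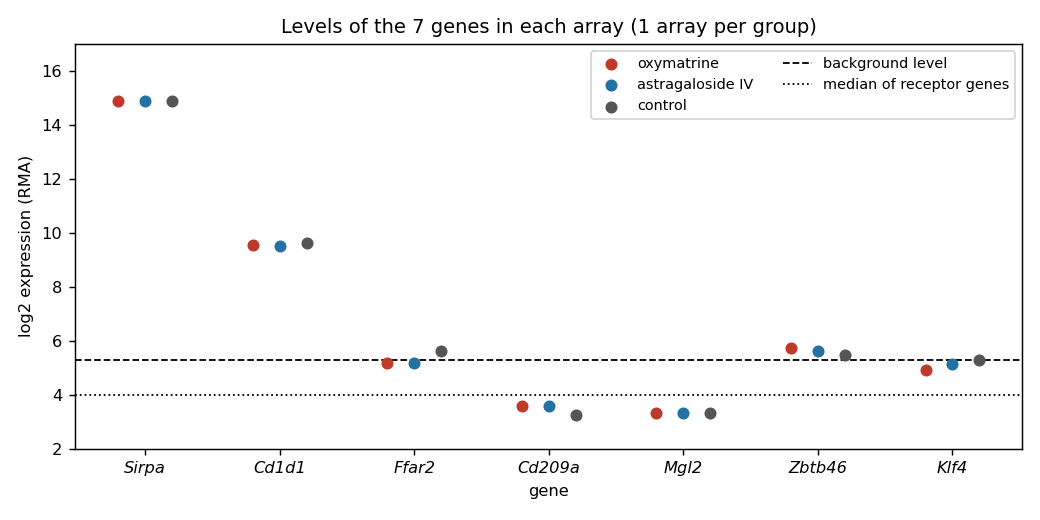
Log2 expression of the 7 genes (y axis) in the oxymatrine, astragaloside IV and control arrays, 1 point per array; the dashed line is the background level of 5.28 and the dotted line the median of the receptor genes, 3.98. Sirpa and Cd1d1 stand clear of background in all arrays, Zbtb46 lies just above it, Ffar2 and Klf4 cross it, and Cd209a and Mgl2 lie below the receptor gene median.

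Counted over all 7 genes, the direction was mixed in each comparison. Values were counted as equal only where the deposited digits were identical. With oxymatrine against control 2 genes were higher (34.7% of all named genes were), 3 were lower (37.5%) and 2 were equal (27.8%). With astragaloside IV against control the same counts of 2 higher (33.3%), 3 lower (36.7%) and 2 equal (30.0%) were found, and these comparisons share the control array. Between oxymatrine and astragaloside IV 3 genes were higher (35.0%), 1 was lower (35.3%) and 3 were equal (29.7%). These counts are close to the shares of all genes, as far as 7 genes can show, and the median difference of the 7 genes was 0 in each comparison, as it was for all named genes.

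No gene of the 7 reached a 1.5-fold difference, or 0.58 on the log2 scale, in any comparison. Of the genes above background, 3.31% did so between oxymatrine and control, 2.13% between astragaloside IV and control and 2.58% between the treated arrays, and of all named genes 4.77% did so between oxymatrine and control, 3.87% between astragaloside IV and control and 4.24% between the treated arrays. At a smaller size, 0.32 on the log2 scale, 3 genes were counted with oxymatrine (Cd209a, Klf4 and Ffar2), where 17.5% of all named genes were, and 2 with astragaloside IV (Cd209a and Ffar2), where 14.7% were. Each of these genes had at least 2 of its 3 values below the background level. Between oxymatrine and astragaloside IV 0 of the 7 were this far apart, where 15.4% of all named genes were.

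**Figure D2:**
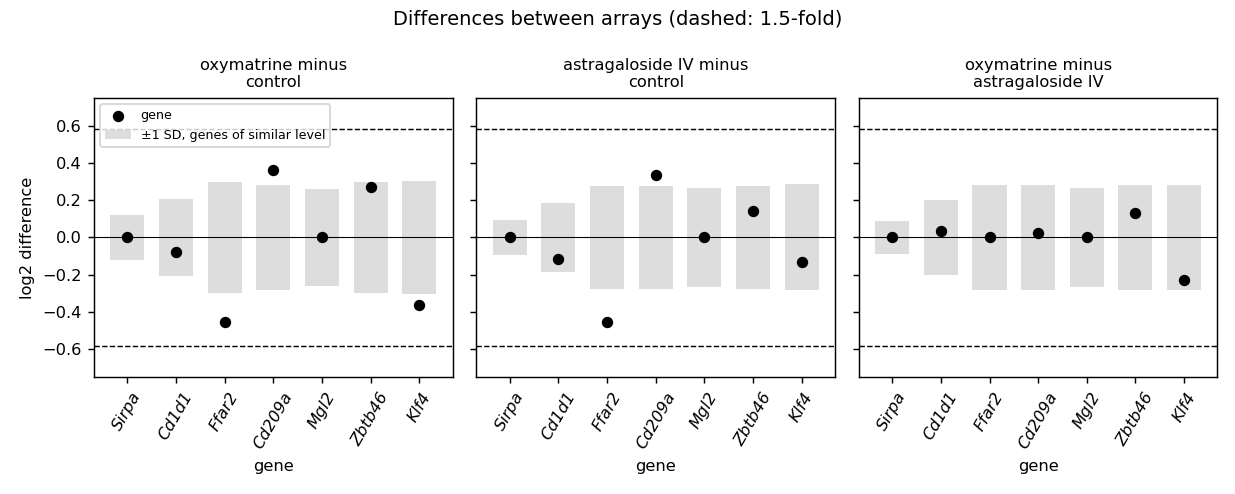
Log2 differences of the 7 genes (black points) in the 3 pairs of arrays, with grey bars of ±1 SD over genes of similar level and dashed lines at 1.5-fold. All points lie inside the 1.5-fold lines, and only Ffar2, Cd209a and, with oxymatrine, Klf4 lie outside the grey bars, all 3 of them dim genes.

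For the genes with a difference of 0.3 or more in any pair, the named genes above background with the most similar pattern were sought by the Euclidean distance between the 3 values less their mean, within 1 log2 unit of the gene's level. For Ffar2 these were Prkaa2, which encodes a catalytic subunit of AMP-activated kinase, at a distance of 0.0032, and Dnaaf5 at 0.0077, out of 1750 candidates. For Klf4 they were Lpar3, a receptor for lysophosphatidic acid, at 0.011 and Capn15 at 0.017, out of 1463. For Cd209a there were 0 candidates, because no gene above background lay within 1 unit of its level. Likeness over 3 arrays is a weak criterion: 38 of the candidates for Ffar2 and 32 of those for Klf4 lay within a distance of 0.1. The treated values of Ffar2 were tied and below background, so its pattern rests on the control value. Both treated values of Klf4 were below background too.

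The partners of each gene were set beside it. CD47, the ligand of SIRPα, had the level 16.31 in all 3 arrays, again without any difference for Cd47. Of 7 measured genes of the SIRPα pathway (Sirpb1a and Sirpb1b were not analysed here), 2 were higher, 3 lower and 2 equal with oxymatrine, and 3 were higher, 1 lower and 3 equal with astragaloside IV, with none at 1.5-fold. For this and the following groups of partners the shares of all genes above background were 29.7% higher, 46.0% lower and 24.4% equal with oxymatrine, and 31.4% higher, 40.8% lower and 27.7% equal with astragaloside IV. At 1.5-fold they were 3.31% with oxymatrine and 2.13% with astragaloside IV, and in groups of this size counts near these shares say nothing particular of a group. Ptpn11, which encodes SHP-2, was at 9.21 with oxymatrine, 9.46 with astragaloside IV and 9.46 in control. Sirpb1c, a relative of Sirpa on another chromosome, was at 10.71 with oxymatrine, 10.44 with astragaloside IV and 10.66 in control. In units of the SD of genes of similar level, Ptpn11 differed from control by -1.21 with oxymatrine and 0 with astragaloside IV, and Sirpb1c by 0.29 with oxymatrine and -1.45 with astragaloside IV.

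Among the genes of the CD1d pathway the neighbouring Cd1d2 differed from control while Cd1d1 did not reach the same size. Cd1d2 was at 7.05 with oxymatrine, 7.09 with astragaloside IV and 6.40 in control, and both treated arrays were above control. The log2 difference was 0.64 with oxymatrine, or 1.56-fold, and 0.68 with astragaloside IV, or 1.61-fold. These were 2.32 times the SD of genes of similar level with oxymatrine and 2.67 times with astragaloside IV. Cd1d2 lies next to Cd1d1 in the RefSeq table of the C57BL/6J genome, where it is listed as a transcribed pseudogene. The copies are close in sequence, and the cells came from BALB/c mice, so how their signals divide between both probe sets is uncertain and was not tested. B2m, the gene for the shared light chain, stood at 19.29 in each array. Of 10 genes of CD1d loading above background, out of 11 measured, 4 were higher, 5 lower and 1 equal with oxymatrine, and 1 was higher, 8 were lower and 1 was equal with astragaloside IV, where 40.8% of all genes above background were lower. Their median difference was -0.01 with oxymatrine and -0.06 with astragaloside IV, against 0 for all genes above background in both. Ctss, which encodes cathepsin S, differed by -0.07 with oxymatrine, -0.56 times the SD of genes of similar level, and by -0.16 with astragaloside IV, -1.75 times that SD. The lipid transfer gene Gm2a differed by 0.11 with oxymatrine and -0.06 with astragaloside IV, and the sterol carrier gene Npc2 by -0.11 with oxymatrine and -0.05 with astragaloside IV.

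Ffar1, Ffar3 and Ffar4, the relatives of Ffar2 in the free fatty acid receptor family, were below background. Ffar3, its neighbour in the RefSeq table and a receptor for the same class of ligand, was at 4.55 with oxymatrine, 4.60 with astragaloside IV and 4.55 in control. The wider group listed beside Ffar2 had 6 genes above background, out of 10 measured. These were receptors outside that family (Gpr84 and Hcar2), G protein genes and a transporter gene. With oxymatrine 2 of the 6 were higher, 2 lower and 2 equal, and with astragaloside IV 3 were higher, 2 lower and 1 equal. Gna11, a G protein subunit that couples receptors to phospholipase C, was at 8.53 with oxymatrine, 8.19 with astragaloside IV and 8.10 in control, a difference of 0.43 with oxymatrine and 0.09 with astragaloside IV. Gpr84, a receptor for medium-chain fatty acids, was above background at 7.30 with oxymatrine, 7.50 with astragaloside IV and 7.30 in control, and Hcar2, a receptor for butyrate and niacin, stood at 9.21 in each array.

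Most of the lectin relatives were below background. Of 9 measured, 3 were above it: Clec10a, the neighbour of Mgl2 that encodes CD301a, at 5.96 with oxymatrine, 5.90 with astragaloside IV and 5.90 in control, Cd209f and Asgr2. Cd209f differed from control by 0.03 with oxymatrine and 0.11 with astragaloside IV, and Asgr2 by 0 with oxymatrine and -0.10 with astragaloside IV. The Cd209 genes other than Cd209f were below background, as were Cd209a and Mgl2.

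All 9 measured genes of the KLF family listed beside Klf4 were above background. With oxymatrine 4 were higher (Klf2 and Klf16 by amounts that round to 0), 3 lower and 2 equal, with astragaloside IV 1 was higher, 5 were lower and 3 were equal, and none reached 1.5-fold. These counts stand beside shares of all genes above background of 46.0% lower with oxymatrine and 40.8% lower with astragaloside IV. Klf9 differed from control by -0.41 with oxymatrine and -0.06 with astragaloside IV, and Klf13 by -0.35 with oxymatrine and -0.12 with astragaloside IV. Klf10 differed by 0.31 with oxymatrine and -0.12 with astragaloside IV, and Klf3 by -0.29 in both. Klf2, a factor of resting lymphocytes and myeloid cells, lay just above background at 5.34 in each array. Of the 9 genes only Klf13 and Klf9 had the order of the arrays seen in Klf4, lowest with oxymatrine and highest in control. Both treated values of Klf4 were below background, and the share of all genes with this order was not counted.

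**Figure D3:**
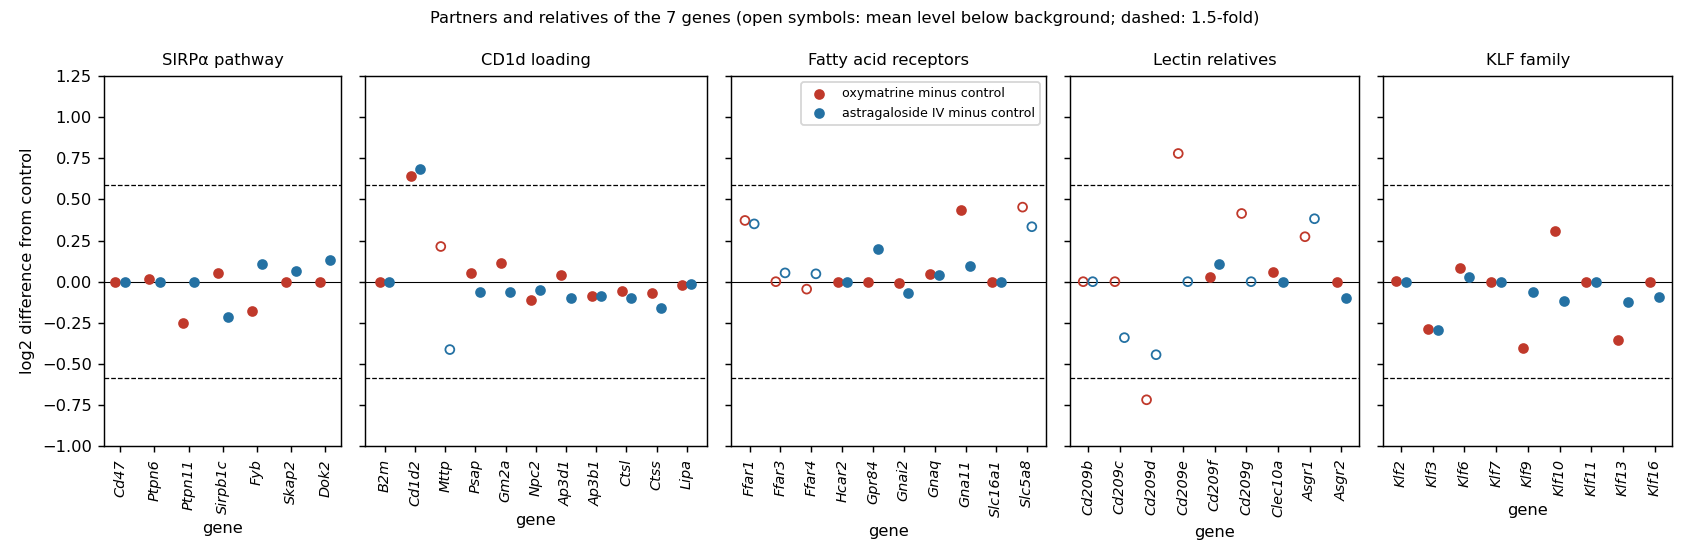
Log2 differences from control (y axis) of the listed partners and relatives of the 7 genes with oxymatrine (red) and astragaloside IV (blue); open symbols are genes with a mean level below background and dashed lines mark 1.5-fold. Cd1d2 is the only gene above background past 1.5-fold, in both comparisons, at 0.64 with oxymatrine and 0.68 with astragaloside IV.

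Other genes of type 2 cells, 10 regulators and 16 surface genes, were used to place the 7 genes in their programme. Of these 26 measured genes 24 were above background. With oxymatrine 8 of the 24 were higher (29.7% of all genes above background were), 12 lower (46.0%) and 4 equal (24.4%), with a median difference of -0.01 against 0 for all genes above background. With astragaloside IV 10 were higher (31.4%), 8 lower (40.8%) and 6 equal (27.7%), with a median of 0. Between oxymatrine and astragaloside IV 9 were higher (32.5%), 11 lower (40.7%) and 4 equal (26.7%). At 1.5-fold, 1 was counted with oxymatrine (Runx3), 0 with astragaloside IV and 1 between the treated arrays (Irf4). The shares of all genes above background were 3.31% with oxymatrine, 2.13% with astragaloside IV and 2.58% between the treated arrays. Counts this near to those shares say nothing particular of the list.

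Runx3, a factor of several lymphoid and dendritic lineages, was at 10.36 with oxymatrine, 10.93 with astragaloside IV and 11.13 in control. Its difference from control was -0.77 with oxymatrine, -4.23 times the SD of genes of similar level, and -0.20 with astragaloside IV, -1.38 times that SD. Irf4, the factor on which many type 2 cells depend, was at 8.11 with oxymatrine, 8.70 with astragaloside IV and 8.50 in control. The oxymatrine array was thus below both others for Irf4 and the astragaloside IV array above control, with differences from control of -0.39 with oxymatrine and 0.20 with astragaloside IV. The difference between oxymatrine and astragaloside IV was -0.59, past 1.5-fold. Irf4 is also induced when dendritic cells and B cells are activated. Notch2, a receptor required for the splenic ESAM-positive type 2 cells, was above control by 0.23 in both treated arrays, and Relb, an NF-κB subunit that type 2 cells need, differed by -0.28 with oxymatrine and -0.21 with astragaloside IV.

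Among the surface genes, Flt3, the receptor for the cytokine of the culture, was at 9.46 with oxymatrine, 9.29 with astragaloside IV and 9.83 in control. Its difference from control was -0.38 with oxymatrine, -1.83 times the SD of genes of similar level, and -0.55 with astragaloside IV, -2.96 times that SD. Flt3 is shared by plasmacytoid and conventional cells and their precursors. Itgax, which encodes CD11c, differed by -0.06 with oxymatrine and -0.34 with astragaloside IV, and Itgam, which encodes CD11b, by 0.08 with oxymatrine and -0.08 with astragaloside IV. Itgam had a level of 14.77 with oxymatrine, 14.61 with astragaloside IV and 14.69 in control, although CD11b is usually low on plasmacytoid cells and is used to mark type 2 and other myeloid cells. Esam, the marker of the Notch2-dependent type 2 cells, was at 6.23 with oxymatrine, 5.96 with astragaloside IV and 5.95 in control. Cd4, carried by many splenic type 2 cells and by plasmacytoid cells, was at 7.31 with oxymatrine, 7.32 with astragaloside IV and 7.09 in control.

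**Figure D4:**
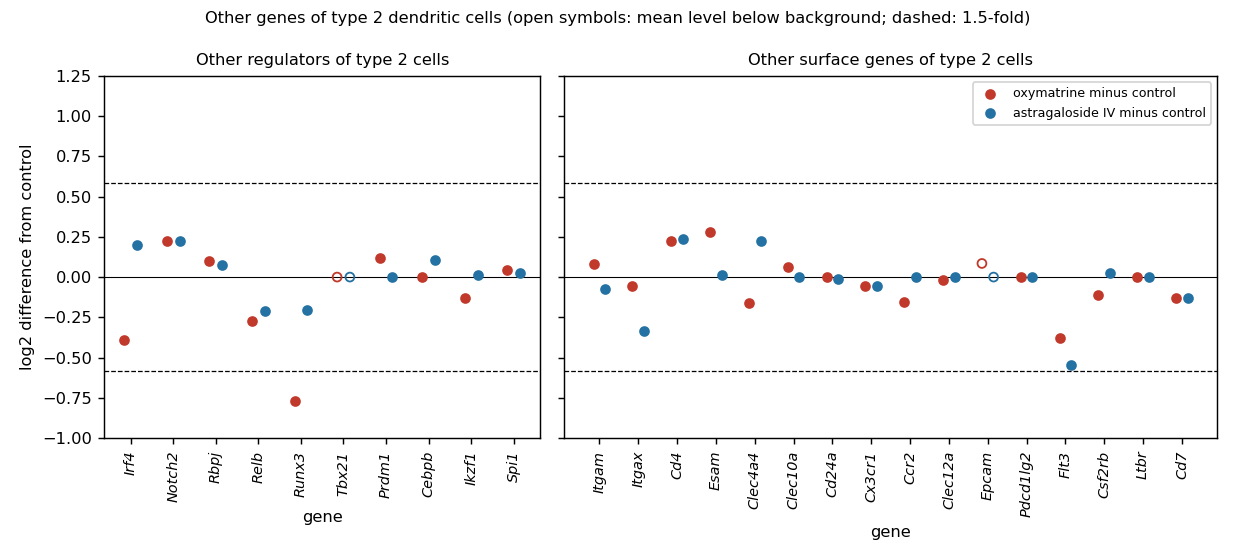
Log2 differences from control (y axis) of 10 regulators and 16 surface genes of type 2 dendritic cells with oxymatrine (red) and astragaloside IV (blue); open symbols are genes with a mean level below background and dashed lines mark 1.5-fold. Runx3 with oxymatrine, at -0.77, is the only point past 1.5-fold.

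The arrays carried markers of the labelled cell type and of others. Of plasmacytoid markers 16 of 18 measured were above background, among them Siglech, at 9.02 with oxymatrine, 8.99 with astragaloside IV and 8.99 in control, and Tcf4, at 14.37 in each. With oxymatrine 3 of the 16 were higher, 10 lower and 3 equal (29.7%, 46.0% and 24.4% of all genes above background), and with astragaloside IV 2 were higher, 9 lower and 5 equal (31.4%, 40.8% and 27.7%). The largest difference was that of Spib, a factor of plasmacytoid and B cells, at -0.48 with oxymatrine and 0 with astragaloside IV. The log2 of the summed level of this list was 16.37 with oxymatrine, 16.41 with astragaloside IV and 16.46 in control. Such a sum is weighted to the genes with the highest values. Irf7, the highest of this list, was at 14.84 with oxymatrine, 14.95 with astragaloside IV and 15.05 in control.

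Of type 1 dendritic cell markers 12 of 16 were above background, but the defining Xcr1 and Clec9a were below it in every array. With oxymatrine 2 of the 12 were higher, 8 lower and 2 equal (29.7%, 46.0% and 24.4% of all genes above background). With astragaloside IV 3 were higher, 7 lower and 2 equal (31.4%, 40.8% and 27.7%). Itgae, which encodes CD103, differed from control by -0.49 with oxymatrine and -0.73 with astragaloside IV, and Gcsam by -0.45 with oxymatrine and -0.61 with astragaloside IV, so that both passed 1.5-fold with astragaloside IV, where 2.13% of all genes above background did. Tlr3, the receptor for double-stranded RNA, was above control by 0.10 with oxymatrine and 0.53 with astragaloside IV. The summed level of the list, 17.48 with oxymatrine, 17.53 with astragaloside IV and 17.61 in control as log2, was carried by Id2, which many other cells express, at 17.39 with oxymatrine, 17.43 with astragaloside IV and 17.52 in control.

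Of monocyte and macrophage markers 12 of 14 were above background, including Adgre1, at 14.12 with oxymatrine, 13.98 with astragaloside IV and 14.12 in control. With oxymatrine 0 of the 12 were higher, 5 lower and 7 equal (29.7%, 46.0% and 24.4% of all genes above background). With astragaloside IV 2 were higher, 6 lower and 4 equal (31.4%, 40.8% and 27.7%). The complement gene C1qa differed by -0.11 with oxymatrine and -0.51 with astragaloside IV. Its partner genes did not share this difference. C1qb stood at 11.39 in each array, and C1qc differed by 0 with oxymatrine and -0.01 with astragaloside IV. Mertk, a receptor for apoptotic cells, differed by -0.45 with oxymatrine and -0.27 with astragaloside IV. The list summed to 16.89 with oxymatrine, 16.90 with astragaloside IV and 16.96 in control. Its highest gene, Ms4a7, was at 15.59 with oxymatrine, 15.62 with astragaloside IV and 15.73 in control.

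Of lymphoid markers 1 of 3 for B cells and 2 of 6 for T and NK cells were above background. Il2rb, an interleukin-2 and interleukin-15 receptor chain of T and NK cells, was at 6.48 with oxymatrine, 6.32 with astragaloside IV and 7.33 in control. Its differences from control, -0.84 with oxymatrine and -1.01 with astragaloside IV, were past 1.5-fold. Of all genes above background 3.31% passed that size with oxymatrine and 2.13% with astragaloside IV. The Il2rb differences were -3.04 times the SD of genes of similar level with oxymatrine and -3.94 times with astragaloside IV. Cd5 differed from control by -0.45 in both treated arrays, while Cd3e, Cd3d, Ncr1 and Klrb1c were below background. Klrb1c differed the other way, by 0.64 with oxymatrine and 0 with astragaloside IV, from values below background in each array. The T and NK cell list, where only Il2rb and Cd5 were above background, summed to 8.57 with oxymatrine, 8.49 with astragaloside IV and 9.02 in control. The B cell list summed to 6.81 with oxymatrine, 6.77 with astragaloside IV and 6.78 in control.

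Of neutrophil markers 3 of 10 were above background. These were Lcn2, which differed from control by -0.27 with oxymatrine and -0.51 with astragaloside IV, Csf3r, by -0.10 with oxymatrine and -0.49 with astragaloside IV, and Mmp8, by 0 with oxymatrine and -0.26 with astragaloside IV. Their median difference with astragaloside IV was -0.49, and it was -0.03 over all 10 measured genes, among which Elane and Ngp were higher from values below background. S100a8, with a mean below background, differed from control by -0.68 with oxymatrine and -0.81 with astragaloside IV. Only its control value was above the background level. S100a9, of the same list, stood at 5.04 in each array, below background and without any difference. The list, set beside Ffar2, summed to 13.24 with oxymatrine, 12.99 with astragaloside IV and 13.48 in control, mostly through Lcn2, at 12.94 with oxymatrine, 12.71 with astragaloside IV and 13.21 in control. The granule genes Mpo, Elane, Ngp, Camp and Ltf had mean levels below background, while Lcn2 and Mmp8, which also encode granule proteins, were above it. The part of other cell types in the difference of Ffar2, or in the levels of Sirpa and Itgam, was not tested.

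Of maturation genes 11 of 12 were above background, with 2 higher, 8 lower and 1 equal with oxymatrine (29.7%, 46.0% and 24.4% of all genes above background) and 4 higher, 6 lower and 1 equal with astragaloside IV (31.4%, 40.8% and 27.7%). Marcksl1, which encodes an actin-regulating protein of mature dendritic cells, passed 1.5-fold in both comparisons, with -0.81 with oxymatrine and -0.60 with astragaloside IV. The shares of all genes above background past 1.5-fold were 3.31% with oxymatrine and 2.13% with astragaloside IV. Cd40 differed by -0.25 with oxymatrine and -0.02 with astragaloside IV, and Cd80 by -0.20 with oxymatrine and -0.16 with astragaloside IV.

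**Figure D5:**
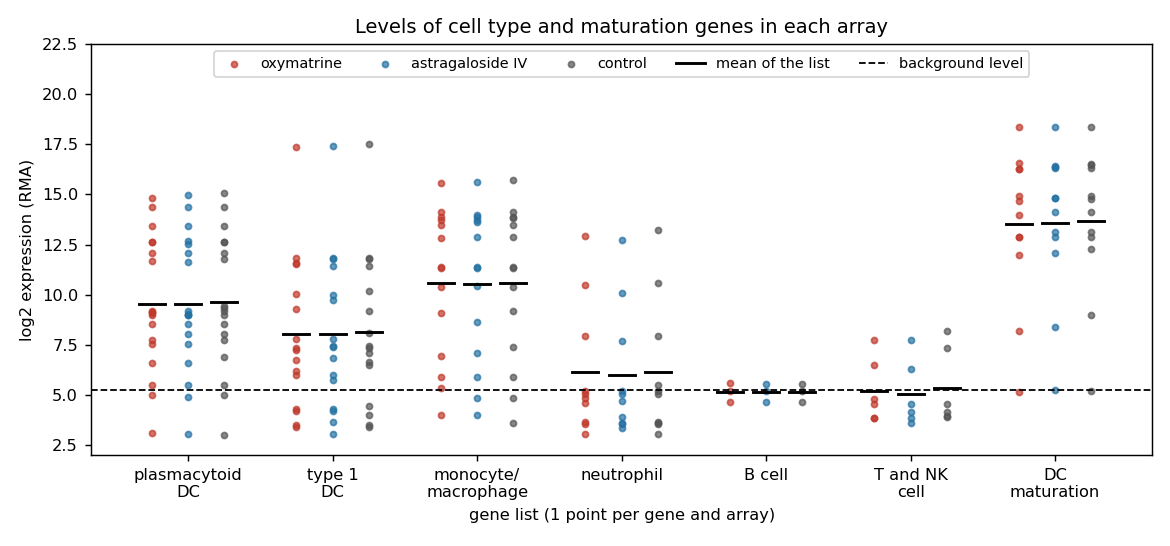
Log2 expression (y axis) of the genes of 6 cell type lists and the maturation list in the oxymatrine, astragaloside IV and control arrays, 1 point per gene and array, with black bars at list means and a dashed line at the background level. The mean of the T and NK cell list is 5.21 with oxymatrine, 5.04 with astragaloside IV and 5.34 in control. Most neutrophil and most T and NK cell genes lie below background. Cd5, Il2rb, Lcn2, Csf3r and Mmp8 lie above it, and S100a8 does so in the control array only.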

How the data were processed

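RNA of 3 samples was measured on 1 whole-transcript array each. The deposited log2 values, 1 per probe set, were made by the authors with RMA (background subtraction, quantile equalisation, median polish), per the submitters' processing notes. Its software and version and the genome build were not given in the sources used here, and coordinates are left out. The values ran from 1.78 to 19.7 and were taken as log2 values. Of 28846 probe sets, 19572 had 1 gene symbol in the platform annotation of 2019. The other 9274, without a single gene symbol, were left out. For 55 genes with several probe sets the brightest was used. All 7 genes matched the RefSeq table by Entrez identifier.

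Differences of log2 values, the background level and SDs over genes of similar level (20 equal bins of all 19505 genes) were computed. With 1 array per group no test, p-value or SE was made, and the number of arrays limits the precision. The 7 genes, the 14 other lists and the thresholds were chosen with earlier results of these data known. Besides the 7 genes, the text names up to 4 genes per list with the largest difference from control among those above background, relatives and identity genes listed with them, and the nearest patterns. Id2, Hcar2, the KLF genes that tie, and genes below background are named for their level, chosen after their values were seen. C1qb and C1qc are named beside C1qa, S100a9 beside S100a8, and Klrb1c beside Il2rb and Cd5, also after their values were seen. Alternatives were median centring, repeated quantile normalisation, lowess centring (fraction 0.3), other thresholds, the mean over probe sets or list members, and all measured list members. The calculations were tested on simulated data. The simulated noise was smaller than the scatter of dim genes in these arrays, and the genes moved were brighter than the dim ones. That test checks the code and does not show how well dim genes are measured. Python 3.11.15, numpy 2.4.6, pandas 2.3.3, statsmodels 0.14.6 and matplotlib 3.10.9 were used.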

Additional observations from a re-analysis of the deposited data

How the results depend on the processing

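The 7 genes kept 0 members at 1.5-fold in the 3 comparisons under median centring, repeated quantile normalisation, lowess centring and a 2-fold threshold. At 0.32 on the log2 scale the count was 3 with oxymatrine, 2 with astragaloside IV and 0 between the treated arrays. Over these alternatives the difference of Ffar2 lay between -0.49 and -0.46 with oxymatrine and between -0.46 and -0.45 with astragaloside IV, and that of Klf4 with oxymatrine between -0.41 and -0.36. Counts by sign moved more, since any rescaling by construction breaks the exact ties of Sirpa, Mgl2 and, between the treated arrays, Ffar2: the equal genes then numbered 0 under each of these 3 rescalings in each comparison. After median centring 5 genes were lower with oxymatrine against control and 5 against astragaloside IV, and 4 were higher with astragaloside IV against control. After quantile normalisation 5 were lower with astragaloside IV against control, and 3 were lower with oxymatrine against astragaloside IV, as were 3 after lowess centring. Among the 4 genes above background 1 was higher and 1 equal in each comparison with control, and 0 were lower with oxymatrine against astragaloside IV. With the 99th percentile of receptor genes as background level 2 of the 7 genes stayed above it, Sirpa and Cd1d1, with the 90th percentile 5 did, and 3 were above the level in every array. The median of the other type 2 genes with oxymatrine ranged from -0.06 (as a mean) to 0.03. No paired analysis was possible because each group has 1 array. Depth does not apply, and signal near background limits Ffar2, Klf4, Zbtb46, Cd209a and Mgl2.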
